A study of Mus musculus with 6 samples.

Results

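The 9 genes described here usually mark the surface lining of the airway and not the vessel wall, and their transcripts were followed through 6 single-cell libraries of the mouse proximal pulmonary artery (PA). They were taken by symbol, 9 of the 53647 genes in the count matrices, and all 9 were found: Scgb1a1, Scgb3a1, Scgb3a2, Bpifa1, Bpifb1, Reg3g, Cyp2f2, Wfdc2 and Ltf. Each was counted in 2 places. The first was free RNA, meaning the summed unique molecular identifiers (UMIs, 1 per captured transcript) of barcodes with 2 to 100 UMIs, too few to be taken as cells. The second was the cells, meaning barcodes that reached 500 UMIs and 300 genes and had no more than 20% of their UMIs from mitochondrial genes, and 15622 of these were kept over the 6 libraries.

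The study profiled PAs of wild-type C57BL/6J mice by droplet sequencing. The young group held 2 libraries, a 3-month one with no sex in its label and a 3-month female. The old group held 4, at 20 and 24 months with no sex in the label, from a 27-month male and from a 28-month female. The study's text describes all old mice but the 28-month one as male, yet Xist, the transcript that silences the second X chromosome of females, stood at 476 CPM (UMIs per 1e+06 UMIs) in the 20-month library, above the 219 CPM of the 3-month female and the 2.21 CPM of the 27-month male, and no sex is assigned to that library here. Xist stood at 41.8 CPM in the 3-month and 27.8 CPM in the 24-month library, between the 27-month male and the 3-month female. No sex is assigned to these libraries either. No treatment or transgene was used. Every PA was cut out together with the tissue around it, minced and digested with collagenase and elastase, so airway and lymphoid cells could enter the preparation. The labels do not say how many mice stand behind a library, and each p-value here takes libraries as its units. The study's text gives 3 young mice for its single-cell work, against the 2 young libraries here. It does not say which of these mice the 2 libraries hold. The edgeR p-values also draw on the spread of the other tested genes. They can therefore be far smaller than 6 libraries alone would give.

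Club and goblet cells of the bronchial lining make secretoglobins and BPI-fold proteins in very large amounts and release them onto the airway surface. When tissue is broken up, transcripts of damaged cells go into solution and are captured in droplets with and without a cell, so a very abundant transcript can be counted in a cell type that never made it. Of the 9 genes, Scgb1a1 encodes the club cell secretory protein, and Scgb3a1 and Scgb3a2 encode further secretoglobins. Bpifa1 and Bpifb1 encode secreted lipid-binding proteins of the airway surface, Reg3g an antibacterial lectin and Ltf the iron-binding protein lactoferrin, which neutrophil granules also hold. Wfdc2 encodes a secreted protein with whey acidic protein domains, and Cyp2f2 is the only one of the 9 whose product stays in the cell, a cytochrome P450 of club cells that acts on foreign compounds.

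The positions of 8 of the 9 genes are given here in GRCm38 with GENCODE M21 gene bodies. Scgb1a1 lies at chr19:9083636-9087958 on the minus strand, Scgb3a1 at chr11:49663610-49665118 on the plus strand and Reg3g at chr6:78466269-78468872 on the minus strand. Cyp2f2 is at chr7:27119909-27133660 and Ltf at chr9:111019271-111042767, both on the plus strand. Chromosome 2 holds 3 of them on its plus strand, Bpifa1 at chr2:154142880-154149219, Bpifb1 at chr2:154190818-154220369 and Wfdc2 at chr2:164562413-164568510, with 41598 bases between the end of Bpifa1 and the start of Bpifb1. The promoters of the 2 neighbouring genes and of Scgb3a1 are shown because these 3 genes differ in length and position but were all higher in the same epithelial cells. Each stretch holds the 250 bases before the RefSeq start on the plus strand (GRCm38.p6), at chr2:154142630-154142879, chr2:154190568-154190817 and chr11:49663345-49663594, and capitals mark matches on either strand to the TATA box as TATAAA, to a forkhead core as TGTTTNC, or to CAAGTG as bound by a lung homeobox factor.

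Bpifa1: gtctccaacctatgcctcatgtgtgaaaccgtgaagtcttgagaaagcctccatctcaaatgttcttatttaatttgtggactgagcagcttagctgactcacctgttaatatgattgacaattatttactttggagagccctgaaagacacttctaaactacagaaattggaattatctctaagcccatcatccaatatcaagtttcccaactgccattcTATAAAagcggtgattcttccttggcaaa

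Bpifb1: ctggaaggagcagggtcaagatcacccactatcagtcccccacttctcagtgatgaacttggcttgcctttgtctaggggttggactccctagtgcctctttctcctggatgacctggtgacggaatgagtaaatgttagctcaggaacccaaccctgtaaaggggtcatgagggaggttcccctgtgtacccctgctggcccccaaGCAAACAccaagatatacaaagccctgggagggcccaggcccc

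Scgb3a1: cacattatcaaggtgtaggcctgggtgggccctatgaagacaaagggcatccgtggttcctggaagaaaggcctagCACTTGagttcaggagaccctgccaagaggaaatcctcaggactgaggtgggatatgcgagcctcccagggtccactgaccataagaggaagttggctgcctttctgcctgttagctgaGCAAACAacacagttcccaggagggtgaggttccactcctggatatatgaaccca

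Bpifa1 held 1 TATAAA, Bpifb1 held 1 TGTTTNC, and Scgb3a1 held 1 TGTTTNC and 1 CAAGTG, with no overlap between the matches. Of 32851 mouse promoters of that length, 12.4% held TATAAA, 17.8% TGTTTNC and 11.6% CAAGTG, so none of the 3 letter patterns is rare. RefSeq promoters were matched for 7 of the 9 genes.

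Before the levels are read, 3 properties of the libraries need to be stated. Libraries held 6355125 to 50436562 UMIs in all and 935 to 4067 kept cells. A set of 3, the 2 young libraries and the 24-month one, shared far more cell barcodes than independent draws would give: 156, 131 and 215 for the 3 pairs, where chance gives 0.375 to 1.15, while no other pair shared more than 4. Epithelial cell counts, summed levels of most cell types, shares of cells and age differences are therefore also given without them. Levels in free RNA and in B cells are given as counted. Because both young libraries belong to this set and only 1 old library does, age and membership of the set cannot be told apart. SMCs numbered 3 in the 24-month library, which was left out of every SMC value. Cell types were assigned by marker UMIs, as epithelial cells where Epcam, Krt8 and Krt18 summed to at least 2 UMIs, and otherwise as fibroblasts (FBs), smooth muscle cells (SMCs), endothelial cells (ECs) or macrophages and monocytes (MΦs) by the highest marker sum. A mesothelial class and cells that no marker placed were kept apart from these, and the unassigned cells numbered 485, 496, 91, 810, 36 and 122 of 2722, 935, 1233, 2868, 3797 and 4067 kept cells.

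Free RNA held all 9 transcripts in all 6 libraries. Together they made up 7478 UMIs per 1e+06 UMIs counted there (CPM) in the 3-month library and 17359 CPM in the 3-month female. In the old group they made up 7134 CPM at 20 months, 13087 CPM at 24 months, 7934 CPM in the 27-month male and 1171 CPM in the 28-month female. The 28-month female stood well below the rest, and the other 5 libraries lay within a narrower band. In that female the free RNA also held the fewest UMIs, 478027, of which 560 were from the 9 genes, against 20634 to 61850 in the other libraries. With barcodes of more than 100 and fewer than 500 UMIs counted as free RNA instead, a choice made after seeing the data, its level was 1223 CPM over 17803332 UMIs.

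Scgb1a1 was the most abundant of the 9 in the free RNA of every library. Its level was 4996 and 11772 CPM in the young libraries and 4333, 9270, 4191 and 546 CPM at 20, 24, 27 and 28 months. By rank it was the 9th, 9th, 17th, 16th and 13th most abundant of all genes in the free RNA of the first 5 libraries, in the order of age, and the 124th in the 28-month female. With mitochondrial genes set aside, those ranks became 6, 6, 8, 7, 5 and 113. Bpifa1 came second in every library, with 720 and 1556 CPM in the young and 1059, 1287, 1871 and 222 CPM in the old.

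The other 7 genes lay lower in free RNA. Scgb3a1 ranged from 178 to 1333 CPM and Scgb3a2 from 83.7 to 1292 CPM, both highest in the 3-month female. Wfdc2 followed with 33.5 to 682 CPM and Cyp2f2 with 37.7 to 384 CPM. Reg3g (35.6 to 171 CPM), Ltf (20.9 to 153 CPM) and Bpifb1 (14.6 to 154 CPM) had the lowest upper ends. For each of the 9 the lowest value was that of the 28-month female, while the highest was in the 3-month female for 6 genes and in the 27-month male for Bpifa1, Bpifb1 and Cyp2f2.

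**Figure D1:**
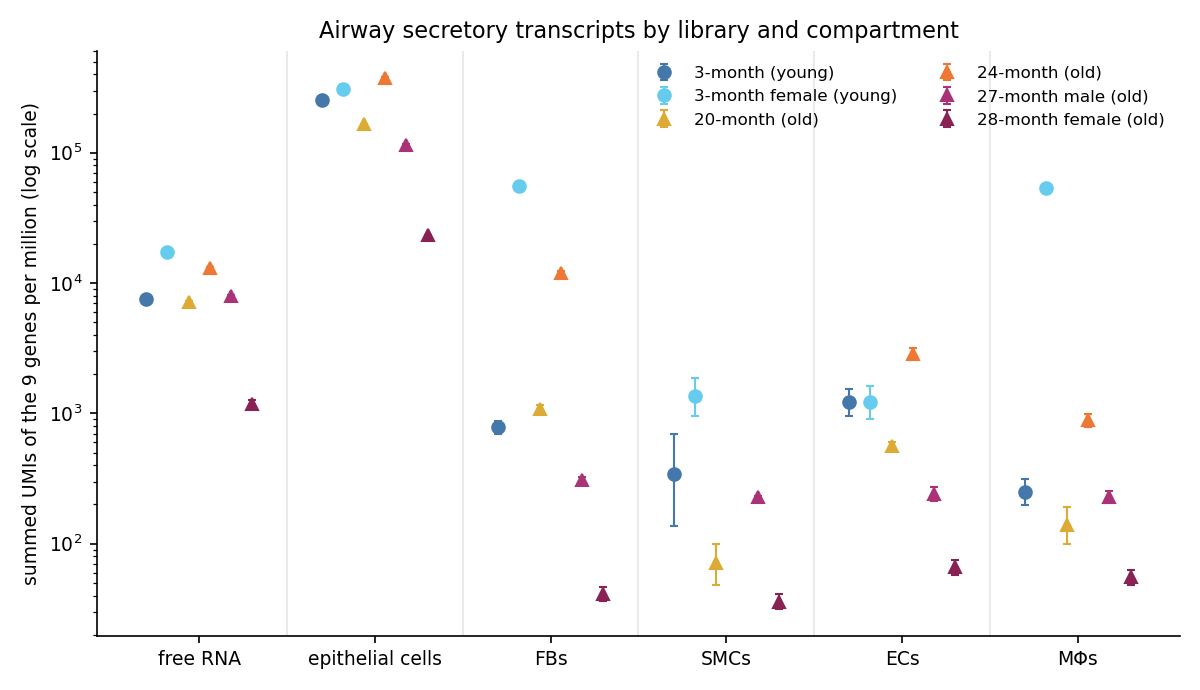
Summed level of the 9 airway secretory genes (CPM, logarithmic axis) in free RNA and in epithelial cells, FBs, SMCs, ECs and MΦs, 1 point per library (circles young, triangles old) with its exact 95% Poisson interval for counting error. Epithelial cells lie above free RNA in all 6 libraries (23179 to 377700 CPM), and the FBs and MΦs of the 3-month female (55119 and 53980 CPM) stand above the free RNA of that library.

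Proportions of the 9 transcripts differed between libraries. Scgb1a1 gave 66.8% and 67.8% of the 9 genes' UMIs in young free RNA and 60.7%, 70.8%, 52.8% and 46.6% in the old. Bpifa1 stood at 0.144 and 0.132 per Scgb1a1 UMI in the young libraries and at 0.244, 0.139, 0.446 and 0.406 at 20, 24, 27 and 28 months. The distance between 2 libraries (the points that would have to move from one gene to another to make their 9 proportions equal) of the 9 proportions was 1.42, 4.09 and 4.42 percentage points within the set that shared barcodes, and reached 24.2 points between the 24- and 28-month libraries. The 3 sharing libraries were thus the 3 most alike in what their free RNA was made of.

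**Figure D2:**
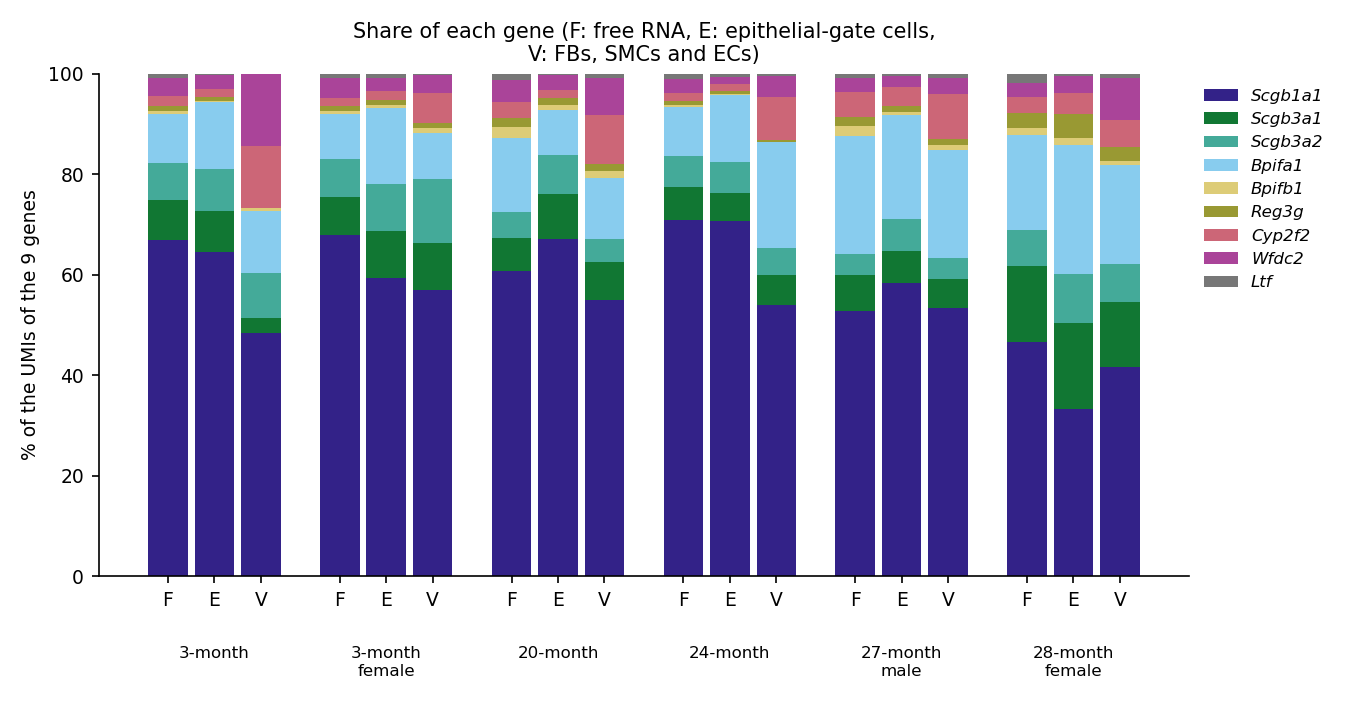
Share of each of the 9 genes in their summed UMIs (percent, stacked bars) per library, for free RNA (F), epithelial cells (E) and the vascular cells (V, FBs, SMCs and ECs). Scgb1a1 leads the free RNA of every library, and Cyp2f2 takes 5.30% to 12.4% of the vascular bars against 1.56% to 4.83% of the free RNA bars.

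Free RNA level also depended on how small the barcode was. Barcodes with a single UMI held 33167, 66323, 11517, 31467, 7958 and 1082 CPM from the 9 genes, in the order of age with the 3-month female second. In the first 4 libraries these were above the values at 11 to 100 UMIs (6258, 16949, 7023 and 12139 CPM), while in the 27-month male the 2 classes lay at 7958 and 7969 CPM. Barcodes of at least 500 UMIs that failed the limit on genes or on mitochondrial UMIs held 430799, 613674, 73661, 35025, 5320 and 429 CPM, above the kept cells of their library (54384, 226318 and 26436 CPM) in the first 3 and below them in the last 3. Mitochondrial genes took 3.70% to 50.8% of the UMIs of barcodes with 11 to 100 UMIs. Their part in these levels was not tested.

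**Figure D3:**
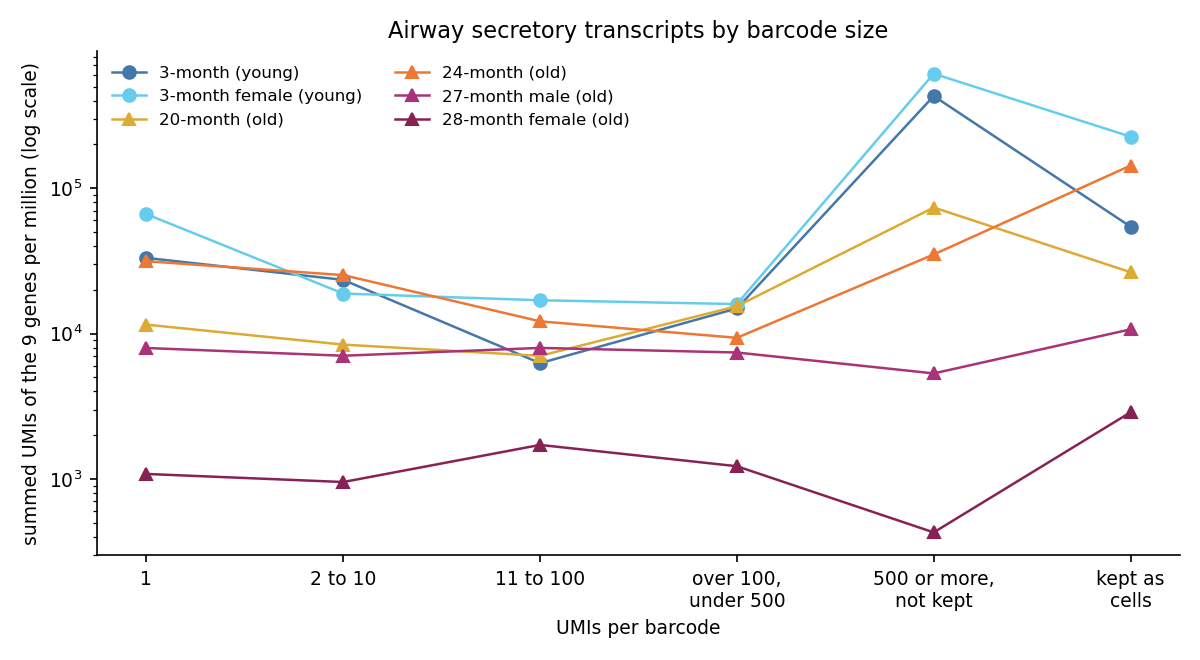
Summed level of the 9 genes (CPM, logarithmic axis) by UMIs per barcode, 1 line per library (circles young, triangles old), from single-UMI barcodes to kept cells. The 28-month female is the lowest line in every class, with 1082 CPM at 1 UMI and 2874 CPM in kept cells.

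Epithelial cells held the 9 transcripts above free RNA in every library. Their sum was 255549 and 310666 CPM in the young libraries and 164918, 377700, 115365 and 23179 CPM at 20, 24, 27 and 28 months, and all 6 lay above the free RNA of their own library, by 14.5-fold to 34.2-fold. All 9 genes passed the filter on low counts and all 9 were higher than free RNA, by 2.67 (SE 0.51, Ltf) to 4.26 (SE 0.51, Scgb3a2) on the log2 scale. Adjusted p-values were 0.00115 to 0.00832 by edgeR's quasi-likelihood test with the library as a block and Benjamini-Hochberg adjustment over 13348 genes, of which 4.15% were called higher and 8.86% lower. All 9 calls held when each library was left out. Without shared barcodes the epithelial sums were 179214, 282333, 152088, 328383, 115365 and 23179 CPM, or 1454% to 2509% of free RNA.

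In some libraries epithelial cells were not the only ones at such levels. Cells that the markers named mesothelial held 22851 CPM over 91 cells in the 3-month library, 461047 CPM over 8 cells in the 3-month female and 318386 CPM over 14 cells at 24 months, and without shared barcodes 10665, 365089 and 312463 CPM. The other 3 libraries held 1, 9 and 12 such cells, at 26998 CPM at 20 months, 182 CPM in the 27-month male and 141 CPM in the 28-month female. In the 3-month library 4 of the 91 cells held 98.4% of these cells' UMIs from the 9 genes. They had over 5% of their UMIs on these genes, and the rest stood at 396 CPM, by a limit that can only lower the level. Unassigned cells held 67624, 138713, 27135, 132621, 1702 and 4543 CPM, and without shared barcodes 19631, 60818, 19176, 100912, 1779 and 4557 CPM. In the 3-month female the mesothelial class thus stood above the epithelial cells, and its 8 cells were too few to be compared by the limit of 10 cells.

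Scgb1a1 alone made up 164790 and 184029 CPM of the young epithelial cells and 110731, 266569, 67265 and 7697 CPM of the old. Scgb3a2 had the largest difference from free RNA, with 28818 CPM in the 3-month female and 2254 CPM in the 28-month female. Ltf had the smallest, at 116 to 2451 CPM. Bpifa1 reached 49671 CPM at 24 months and was lowest, at 5932 CPM, in the 28-month female. Without shared barcodes Scgb1a1 stood at 126275, 171440, 101754 and 239660 CPM in the first 4 libraries, Scgb3a2 at 23829 CPM in the 3-month female and Bpifa1 at 39507 CPM at 24 months.

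A part of the cells behind the epithelial label went against it. The rule took 215 and 210 cells in the young libraries and, by age, 79, 258, 224 and 281 in the old ones, of which 134, 73, 77, 123, 224 and 281 had a barcode kept in no other library, and an Epcam UMI was found in 48, 102, 33, 129, 66 and 96 of them. In 76, 9, 41, 37, 172 and 267 of them the markers of another class were higher than the epithelial ones. B cell markers led in 144 cells of the 28-month female and SMC markers in 75 cells of the 27-month male. FB markers led in 33, 4, 22, 20, 48 and 56 cells of the 6 libraries. Mesothelial markers led in 42, 4, 12, 11, 26 and 40, and at least 2 mesothelial UMIs were present in 98, 37, 38, 47, 95 and 100. The 9 genes followed the same line: cells with an Epcam UMI held 241892 CPM and those without held 5792 CPM in the 27-month male, and in the 28-month female the values were 58199 and 324 CPM. In the 3-month female and at 24 months the cells without an Epcam UMI held the higher level, 356573 against 286969 and 434226 against 339181 CPM.

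The signal was uneven among epithelial cells. Cells with more than 5% of their UMIs on the 9 genes numbered 87 of 215, 143 of 210, 11 of 79, 154 of 258, 33 of 224 and 10 of 281 in the 6 libraries. Chosen by these same genes, they held 97.7% to 99.1% of the UMIs that the epithelial cells had from them, which is given as a description. Scgb1a1 was detected in 98.9% to 100% of these cells, Cyp2f2 in 100%, Wfdc2 in 99.4% to 100%, and Ltf in 66.7% to 84.8%.

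Other airway genes came from lists drawn up with results of these data known, and many but not all were higher in epithelial cells too. Several, with Krt15, Krt5 and Trp63 among them, fell below the filter level in the free RNA of a library. These passed the filter only with the help of the epithelial cells, where they are high, so the counts are a description. Of 14 further secretory genes 13 were tested and 9 were higher in epithelial cells than in free RNA, among them Cbr2, a carbonyl reductase (log2 3.00), Lypd2 (3.26) and Hp, which encodes haptoglobin (1.65), while Pigr, the receptor that carries IgA across the epithelium, lay at 1.51 with an adjusted p of 0.0908 by edgeR. Their median was 2.54, against -0.01 over all genes. Ciliated genes were higher in 5 of 7 (Tmem212 1.77, Sec14l3 2.05, Dynlrb2 1.66, but Tppp3 at 1.18 missed the threshold), basal genes in 3 of 3 (Krt15 3.75, Krt5 3.47, Trp63 1.61) and alveolar genes in 2 of 5 (Sftpa1 3.64 and Sftpd 2.56). The other alveolar genes did not pass, with Slc34a2 at -1.21, Sftpc at -1.18 and Sftpb at 0.61 (adjusted p = 0.232, 0.232 and 0.457 by edgeR). All 4 globin genes were lower in epithelial cells than in free RNA, and their summed level in free RNA was 1291 to 106416 CPM.

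SMCs held the 9 transcripts at a few percent of the free RNA level. They summed to 340 and 1357 CPM in the young libraries and to 70.6, 227 and 36.0 CPM at 20, 27 and 28 months, which is 4.54%, 7.82%, 0.989%, 2.86% and 3.07% of the free RNA of the same library. All 5 libraries lay below it, and without shared barcodes the SMCs stood at 0.989% to 7.89% of it. Scgb1a1 was lower than free RNA, at -6.35 (SE 0.62) on the log2 scale, with an adjusted p of 7.68e-21 by edgeR. Over the alternatives its adjusted p ran from 1.16e-46 to 0.00188 by edgeR or DESeq2. Of 12203 genes 14.3% were called lower and 1.75% higher. Scgb1a1 was the only member that reached the level of the low-count filter in the SMCs of every library, by a count made after the calls were seen. It had 4 to 2864 UMIs in a library's SMCs. The other 8 could pass the filter only with the help of free RNA, where they are high, so their calls, all lower, are not counted. Bpifb1, Reg3g, Cyp2f2 and Ltf had no UMI in the SMCs of the 3-month, 3-month female and 20-month libraries, where 3 UMIs correspond to 146, 113 and 6.41 CPM.

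In the 27-month male, with 2370 SMCs and 22151765 UMIs, every one of the 9 was detected. Scgb1a1 stood at 129 CPM, Bpifa1 at 50.6 CPM and Cyp2f2 at 12.7 CPM, which were 3.08%, 2.70% and 3.32% of free RNA. A single cell held 10.5% of these SMCs' UMIs from the 9 genes.

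ECs also lay below free RNA in every library. Their sums were 1220 and 1217 CPM in the young and 565, 2846, 243 and 65.8 CPM in the old libraries, or 16.3%, 7.01%, 7.92%, 21.7%, 3.06% and 5.61% of free RNA in the same order. The 4 members that reached the filter level in the ECs of every library were lower, with Scgb3a2 at -4.46 (SE 0.46), Scgb1a1 at -4.69 (SE 0.59), Bpifa1 at -5.08 (SE 0.53) and Scgb3a1 at -5.11 (SE 0.55) on the log2 scale, with adjusted p-values up to 2.88e-06 by edgeR, where 16.6% of 11851 genes were called lower and 4.63% higher. The 4 were sparse in some libraries too, since in a shallow library 1 UMI was enough to reach that level. In a library's ECs Scgb3a1 had 1 to 78 UMIs, Bpifa1 2 to 147, Scgb3a2 5 to 39 and Scgb1a1 33 to 373. Bpifb1, Reg3g, Cyp2f2, Wfdc2 and Ltf, at 0 to 25 UMIs in a library's ECs, passed only with the help of free RNA, and their calls are not counted. Scgb1a1 led in each library with 1033, 819, 293, 2207, 115 and 31.0 CPM. The sum rested on few cells in some libraries: 1 EC of 558 held 81.3% of the EC UMIs from these genes at 20 months and 1 of 84 held 65.3% in the 3-month library. Without such cells of over 5%, ECs stood at 1.48% to 9.30% of free RNA, by a limit on the same genes that can only lower the level.

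MΦs and FBs each had a library far above the rest. In MΦs the 9 genes summed to 250 and 53980 CPM in the young libraries and to 139, 883, 228 and 55.4 CPM in the old, that is 3.34%, 311%, 1.95%, 6.75%, 2.87% and 4.73% of free RNA. The 3-month female alone lay above its free RNA, and there 2 of 52 MΦs held 98.0% of the UMIs. Without barcodes that were cells in another library too, MΦs stood at 1.95% to 7.10% of free RNA in the 6 libraries. Scgb1a1 and Bpifa1, the 2 members at the filter level in the MΦs of every library, were lower than free RNA, at -5.27 (SE 0.87) and -4.76 (SE 0.93) on the log2 scale, with adjusted p-values of 0.000194 and 0.000806 by edgeR, where 20.9% of 11942 genes were called lower and 7.89% higher, 28.8% in all. The other 7 passed the filter only with the help of free RNA. Without the library block 2 of the 9 genes were called. That count runs over all 9, and the share over all genes under this setting is not given, so it is a description.

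In FBs the sums were 781 and 55119 CPM in the young and 1085, 12034, 307 and 41.3 CPM in the old libraries, or 10.4%, 318%, 15.2%, 92.0%, 3.87% and 3.53% of free RNA. Again the 3-month female was the exception, where 4 of 59 FBs held 91.7% of the UMIs. Without shared barcodes FBs stood at 3.53% to 31.4% of free RNA and were below it in 6 of 6 libraries. With at least 5 marker UMIs asked of each cell, a choice made after seeing the data, the range was 2.84% to 29.5%. The epithelial rule also bore on this value, since asking for an Epcam UMI moved further cells among the FBs, whose highest value then reached 556%, with 3 of 6 libraries below free RNA.

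**Figure D4:**
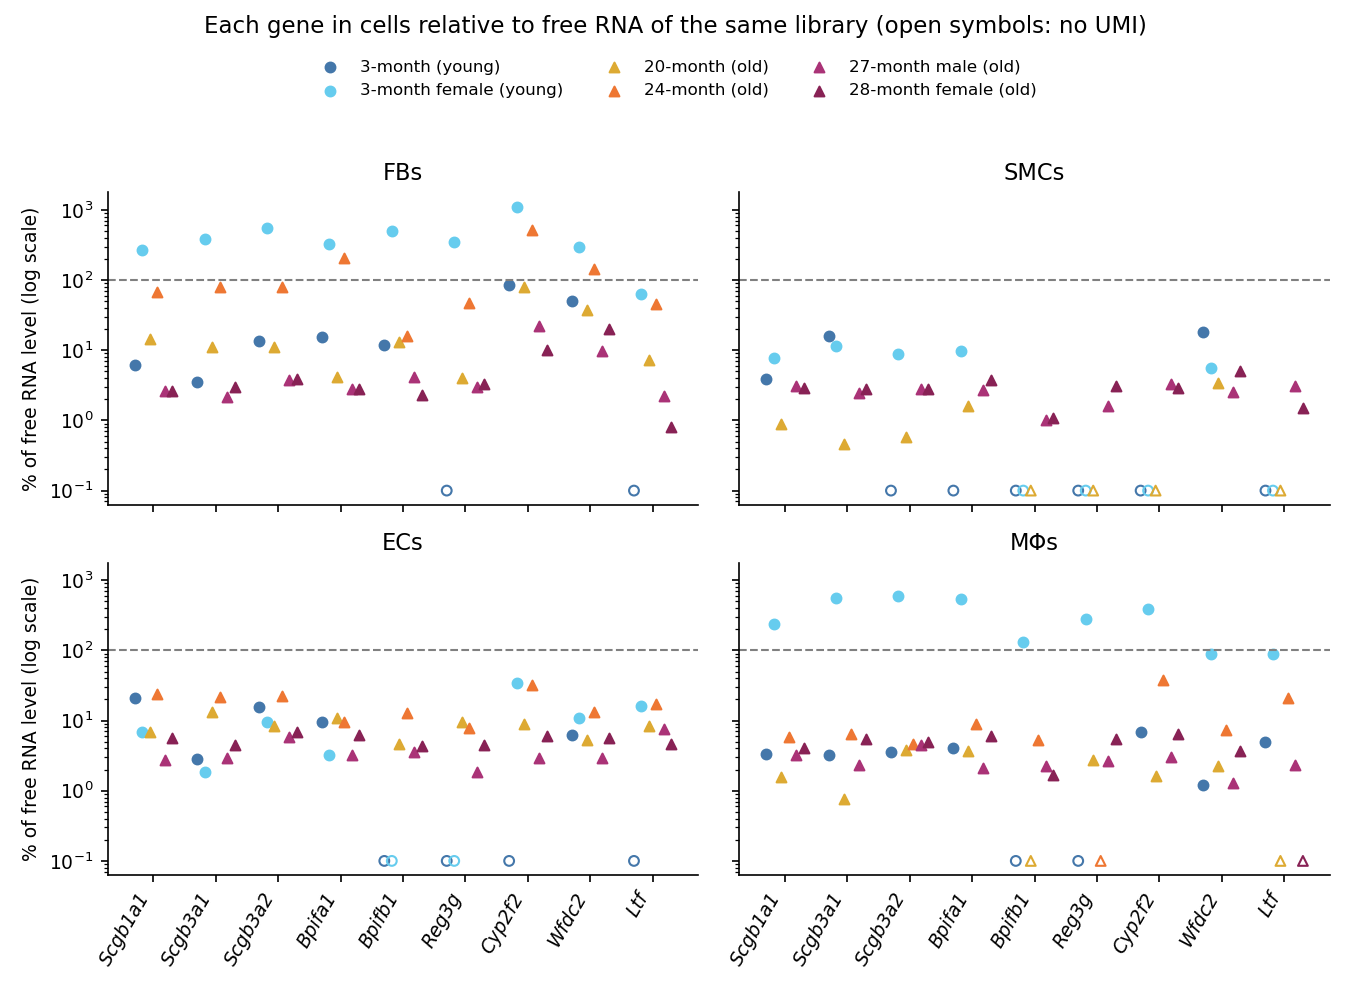
Level of each of the 9 genes in FBs, SMCs, ECs and MΦs as a percent of its level in the free RNA of the same library (logarithmic axis), 1 point per library (circles young, triangles old), with open symbols for no UMI and a dashed line at 100%. SMCs and ECs lie below the line for every gene and library, and Cyp2f2 in FBs runs from 9.93% to 1111%.

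In FBs 5 members reached the filter level in every library, and 3 of them were lower than free RNA. Scgb3a1 lay at -3.87 (SE 1.00), Scgb1a1 at -3.73 (SE 0.94) and Bpifa1 at -3.55 (SE 1.08) on the log2 scale, with adjusted p-values of 0.0155, 0.0135 and 0.0379 by edgeR, where 12.2% of 13395 genes were called lower and 4.12% higher. Wfdc2 at -1.79 (SE 0.61, adjusted p = 0.0599) and Cyp2f2 at -0.83 (SE 0.81, adjusted p = 0.543) did not pass. With at least 5 marker UMIs per cell, a choice made after seeing the data, both did, Wfdc2 at -3.19 and Cyp2f2 at -2.66. Over its alternatives Wfdc2 passed in 6, this one included, and missed the threshold in 13. Among the 6 were leaving out shared barcodes (-2.10, adjusted p = 0.00924 by edgeR), leaving out the 3-month female (-2.23, adjusted p = 0.0446 by edgeR) and DESeq2 (-2.02, adjusted p = 0.00271). Scgb3a2, Bpifb1, Reg3g and Ltf were called lower too, but passed the filter only with the help of free RNA. With them the count was 7. It ran from 2 to 8 when 1 library was left out, the lowest without the 3-month library. The count was 0 without the library block, 1 with an Epcam UMI required and 4 with at least 1000 UMIs and 500 genes per cell. All these counts run over members that passed only with the help of free RNA too. The shares over all genes under these alternatives are not given, so the counts are a description.

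Scaling moved these comparisons as a whole. With library sizes in place of TMM factors, the genes called higher and lower than free RNA went from 552 and 1633 to 4134 and 929 in FBs, from 214 and 1751 to 1649 and 905 in SMCs, from 549 and 1964 to 3738 and 1048 in ECs, from 942 and 2492 to 3421 and 1543 in MΦs, and from 554 and 1182 to 3102 and 479 in epithelial cells. The median of all genes moved from -0.06 to 0.76 in FBs, from -0.33 to 0.76 in SMCs, from -0.21 to 0.83 in ECs, from -0.24 to 0.66 in MΦs and from -0.01 to 0.53 in epithelial cells. None of the 9 changed sign, which for a shift common to all genes says only how far from 0 they lay. Cyp2f2 in FBs moved to -0.11, and Bpifa1 in FBs no longer passed.

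Most of the other airway genes that were tested lay below free RNA in these cells, many of them tested because they are high in free RNA, so the counts are a description. Secretory genes were lower than free RNA in 4 of 4 tested in SMCs, 9 of 10 in ECs, 6 of 8 in MΦs and 4 of 11 in FBs. Ciliated genes were lower in 4 of 5, 5 of 5, 5 of 6 and 6 of 7, in the same order, and alveolar genes in 1 of 1, 1 of 1, 2 of 2 and 1 of 3. Basal genes were lower in 1 of 1 in SMCs and 2 of 2 in MΦs, none was tested in ECs, and 0 of 3 passed in FBs by edgeR, none with an unadjusted p under 0.05, where Krt15 lay at 0.08, Krt5 at 0.65 and Trp63 at -0.76. Values above 0 that did not pass were also those of Tppp3, a ciliated gene, at 0.86 in FBs and 0.31 in MΦs, of Lcn2, which encodes an iron-sequestering lipocalin, at 1.07 in ECs (adjusted p = 0.114 by edgeR) and 0.48 in FBs, and of Cldn10, a tight junction gene, at 0.52 in FBs. Globin genes were lower in 4 of 4 in each of these cell types.

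Cyp2f2 and Wfdc2 were the members that FBs held out of proportion. Cyp2f2 stood at 123 and 3269 CPM in the FBs of the young libraries and at 173, 1074, 84.7 and 3.74 CPM in the old. In ECs it stood at 0, 99.3, 19.7, 64.7, 11.1 and 2.23 CPM, in MΦs at 9.74, 1137, 3.57, 78.5, 11.6 and 2.45 CPM, and in SMCs it reached 12.7 CPM. FBs were the highest of these 4 cell types in every library. Wfdc2 behaved alike, with 137 and 2028 CPM in young FBs and 116, 527, 21.7 and 6.80 CPM in old, while ECs held 1.92 to 74.5 CPM. The FB values without shared barcodes were 92.4, 1239, 173, 788, 85.2 and 3.75 CPM for Cyp2f2 and 110, 1102, 117, 316, 21.9 and 6.81 CPM for Wfdc2. With all FBs counted, a single FB held 23.9%, 48.2%, 36.4%, 11.3%, 51.7% and 50% of a library's FB UMIs of Cyp2f2. For Wfdc2 this share ran from 15.9% to 52.9%. FBs of the 28-month female had 22 Cyp2f2 UMIs, 11 of them in 1 cell. Their lead there, 3.74 against 2.45 CPM in MΦs, thus leaned on 1 cell.

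A direct test, added after these values were seen, compared FBs with ECs, SMCs and MΦs in 1 fit with the library as a block. Of the 6 members that passed the filter, 2 were called, both higher: Cyp2f2 by 2.90 (SE 0.37, adjusted p = 0.000543) and Wfdc2 by 2.83 (SE 0.31, adjusted p = 0.000219) on the log2 scale, by edgeR. Of 7940 genes 9.09% were called higher and 8.01% lower. Cyp2f2 and Wfdc2 passed the filter only with the help of the FBs, where they are high, so these 2 calls are a description. Scgb1a1 (0.73, adjusted p = 0.271), Scgb3a2 (1.01, 0.0936), Bpifa1 (0.57, 0.642) and Scgb3a1 (0.48, 0.499) did not pass by edgeR, and Bpifb1, Reg3g and Ltf were too sparse to be tested. Both differences stayed above 0 with each library left out and without shared barcodes. These alternatives reuse the same data and the same kind of filter, so they add no support to the 2 calls. With at least 5 marker UMIs the differences were 1.99 and 2.19. Without the library block neither passed (adjusted p = 0.353 and 0.283 by edgeR), and over the 16 alternatives Cyp2f2 ran from 1.99 to 3.42. With at least 1000 UMIs and 500 genes per cell Cyp2f2 passed at 2.70 and Wfdc2 was too sparse to be tested.

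The FBs that carried Cyp2f2 were few and unlike the other FBs. They numbered 8 of 330 and 14 of 59 in the young libraries and 7 of 232, 38 of 387, 28 of 532 and 11 of 926 in the old. A UMI of Epcam, Krt8 or Krt18 was present in 50%, 42.9%, 57.1%, 34.2%, 7.14% and 9.09% of them, against 12.7%, 2.22%, 2.67%, 7.45%, 2.78% and 2.19% of the FBs without Cyp2f2. Their median sum of FB markers was 3, 2, 3 and 2.5 UMIs in the first 4 libraries against 8, 6, 21 and 9 UMIs, but 70.5 against 88 in the 27-month male and 119 against 98 in the 28-month female. In that last library none of the 11 had a Scgb1a1 UMI. The part of these epithelial UMIs in the FB result was not tested.

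FBs with Wfdc2 looked much the same. They numbered 20, 18, 7, 49, 21 and 19, and 14.3% to 57.1% of them had a UMI of the 3 epithelial genes, against 1.43% to 11.6% of the other FBs. Their median sum of FB markers was 2 to 34 UMIs, lower than the 7 to 99 UMIs of the other FBs in all 6 libraries.

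Proportions among the 9 were next compared between free RNA and the FBs, SMCs and ECs together. Cyp2f2 made up 12.4%, 5.89%, 9.86%, 8.47%, 8.89% and 5.30% of the 9 genes' UMIs in these cells, against 1.91%, 1.69%, 3.07%, 1.56%, 4.83% and 3.21% in the free RNA of the same libraries, and was above it in all 6. Wfdc2 made up 14.3%, 3.71%, 7.23%, 4.19%, 3.17% and 8.39%, against 3.62%, 3.93%, 4.39%, 2.76%, 2.81% and 2.86%, and was below free RNA in the 3-month female. FBs held 47.0% to 100% of the Cyp2f2 UMIs of these cells, so FBs weigh heavily in this comparison too.

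Vascular cells and free RNA were 25.6, 11.8, 10.7, 19.6, 5.10 and 8.95 points apart over their 9 proportions. Without shared barcodes the Cyp2f2 shares were 9.97%, 16.6%, 9.88%, 22.7%, 8.91% and 5.33%, the Wfdc2 shares 12.5%, 15.9%, 7.25%, 9.31%, 3.16% and 8.44%, and the distances 19.2, 26.9, 10.8, 32.0, 5.09 and 8.89 points. When cells with more than 5% of their UMIs on the 9 genes were left out, the distances were 37.3, 31.9, 42.8, 41.8, 5.35 and 8.95 points and Cyp2f2 took 5.30% to 29.1%. That limit acts on a sum led by Scgb1a1 and so lowers the share of Scgb1a1 by its construction. The vascular sums behind the shares of all cells were 370, 2884, 1562, 5103, 6240 and 679 UMIs.

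In the vascular cells, too, a handful of barcodes held much of the total. FBs, SMCs and ECs with more than 5% of their UMIs on the 9 genes numbered 2 of 435, 4 of 147, 2 of 932, 5 of 557, 2 of 3191 and 0 of 2758 and held 29.5%, 89.0%, 73.0%, 76.7%, 9.17% and 0% of the vascular UMIs from these genes. Without them the vascular level was 579 and 2946 CPM in young libraries, against 170, 2344, 215 and 44.1 CPM in the old. Leaving out cells chosen by these same genes can only lower the level. As likely doublets 59, 6, 12, 66, 27 and 43 cells were marked by their scrublet scores, where the numbers in the 3-month, 20-month and 24-month libraries were set by an assumed rate of 0.8% per 1000 cells and not by a threshold that scrublet found, and leaving them out kept FBs at 3.56% to 323% and lowered the highest EC value from 21.7% to 16.5% of free RNA.

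UMIs of the 9 genes were also spread over many cells. At the depth as sequenced, a UMI of any of the 9 was found in 16.1% to 71.2% of FBs, in 16.8% to 65.3% of SMCs, in 16.3% to 53.7% of ECs and in 19.1% to 63.5% of MΦs, where the median depth was 650 to 9363 UMIs per cell. In FBs the order of the shares was not that of depth. FBs of the 3-month female reached 71.2% at a median of 663 UMIs, and those of the 28-month female 16.1% at 6063 UMIs. In SMCs the deepest library, the 27-month male at a median of 9363 UMIs, had the highest share, 65.3%, which was 8.82% at 500 UMIs. Thinned to 500 UMIs, FBs stood at 14.8% and 61.0% in the young libraries and at 4.74%, 39.0%, 10.9% and 3.35% in the old. ECs stood at 19.0%, 42.6%, 7.35%, 40.1%, 9.34% and 3.20%, and MΦs at 12.5%, 40.4%, 6.67%, 33.0%, 11.1% and 4.21%. SMCs stood at 19.0%, 50%, 5.63%, 8.82% and 2.13%. Leaving out shared barcodes gave FB shares of 3.36% to 52.1%, those of MΦs moved most in the 3-month female, to 35.7%, and those of ECs and SMCs lay between 2.14% and 51.5%. The 4 cell types rose and fell together from library to library, highest in the 3-month female and lowest in the 28-month female. Free RNA had the same highest and lowest library but not the same order between them. Its level was higher in the 27-month male than in the 3-month library (7934 against 7478 CPM), while the shares of all 4 cell types were lower. Epithelial cells, at 67.9%, 99.5%, 51.9%, 95.3%, 41.5% and 9.25%, were above all 4 in each library, and stood at 50.7%, 98.6%, 51.9%, 90.2%, 41.5% and 9.25% without shared barcodes.

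Cells whose barcodes recurred held much of the secretory signal. In the 3-month, 3-month female and 24-month libraries 171, 249 and 230 kept cells had a barcode that was also a kept cell elsewhere, and these held 66.4%, 84.1% and 64.6% of all cell UMIs from the 9 genes. In the other 3 libraries 7, 12 and 13 did. For a barcode kept in a pair of sharing libraries, the percent of UMIs on the 9 genes was nearly the same in both, with Pearson's r of 0.995, 0.971 and 0.994 over 156, 131 and 215 barcodes, given as a description of barcodes that are not independent. In 117, 103 and 165 of them both values were over 5%. The same barcode had more UMIs in the 3-month library than in the 3-month female in 33 of 156 cases, and more in the 3-month female than at 24 months in 133 of 215.

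**Figure D5:**
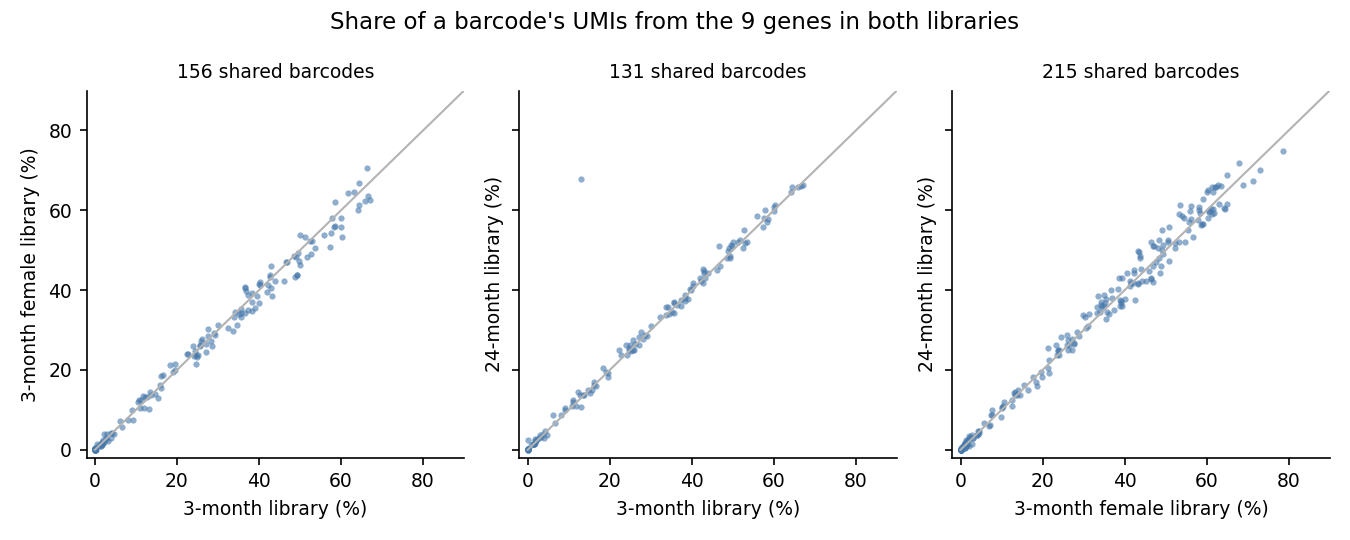
Percent of UMIs on the 9 genes for each barcode kept as a cell in both libraries of a pair, 1 panel per pair (156, 131 and 215 barcodes), with the line of equal values drawn. Points lie along that line in all 3 panels, with 1 far from it in the pair of the 3-month and 24-month libraries, and r is 0.995, 0.971 and 0.994.

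Old and young libraries were compared for these sums and shares. The sum of the 9 genes was lower in the old libraries in free RNA by 1.07 on the log2 scale, in epithelial cells by 1.31, in FBs by 3.36, in SMCs by 3.03, in ECs by 1.61 and in MΦs by 4.21. The two-sided exact permutation p-values were 0.4, 0.4, 0.4, 0.2, 0.533 and 0.267. With 2 libraries against 4 the smallest p this test can give is 0.133, and with 2 against 3, as in SMCs, 0.2, so no difference could have passed a threshold of 0.05. SMCs reached their smallest p. Both young libraries lay above all 3 old ones in the sum (340 and 1357 against 70.6, 227 and 36.0 CPM) and in the share of cells. The 340 CPM of the 3-month library came from only 7 UMIs in 21 cells. Its exact Poisson interval, 137 to 700 CPM, covered the 227 CPM of the 27-month male. The share in that 3-month library, 19.0%, rested on the same 21 cells. In the other cell types and in free RNA young and old libraries overlapped. With shared barcodes left out the differences, old minus young, were -1.07 in epithelial cells, -2.16 in FBs, -3.04 in SMCs, -1.59 in ECs and -1.51 in MΦs. Shares of cells at 500 UMIs were lower in the old by 34.2 percentage points in epithelial cells, 23.4 in FBs, 29.0 in SMCs, 15.8 in ECs and 12.7 in MΦs (exact permutation p = 0.267, 0.267, 0.2, 0.267 and 0.267), and without shared barcodes by 10.7 to 29.7 points. Adjusted over these 11 tests the permutation p-values were 0.419 to 0.533. The epithelial sums and shares also carried the limits of the epithelial rule. When the class with the highest marker sum was taken instead, the epithelial sums were 349540 and 315236 CPM in the young libraries. In the old ones they were then 309779, 383047, 276173 and 190130 CPM at 20, 24, 27 and 28 months.

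By edgeR 0 of 9 members were called between old and young in free RNA, where 0% of 19668 genes were, and 2128 had an unadjusted p under 0.05. In epithelial cells 0 of 9 were called (0% of 10000 genes), in FBs 0 of 6 tested (0% of 7215), in SMCs 0 of 3 (0% of 6755) and in ECs 0 of 1 (0% of 5849). In MΦs 0 of 3 were called where 0.0164% of 6080 genes were. An unadjusted p under 0.05 was reached by 2 of the 3 in SMCs and all 3 in MΦs by edgeR, and by no member elsewhere. Of all tested genes 7.05% reached it in SMCs and 5.67% in MΦs. Without the 27-month male, Scgb1a1 was called in SMCs at -3.99 (adjusted p = 0.00828 by edgeR, against 0.00828 to 1.00 over all alternatives). DESeq2 called 1 member in MΦs, Scgb3a1, among 10 of 6080 genes called by that tool. In the 3-month female 2 of 52 MΦs held 98.0% of the MΦ UMIs from the 9 genes. In free RNA Scgb1a1 lay at -0.40 (SE 1.16), and the members ran from -0.78 for Scgb3a2 to 0.77 for Bpifb1, against a median of -0.64 over all genes. All 9 lay below 0 in epithelial cells, from -1.14 to -0.52, where the median of all genes was 0.08. Markers of another class led in 172 of 224 of these cells in the 27-month male and in 267 of 281 in the 28-month female. Among the 3 libraries that shared barcodes, the free RNA of the 24-month one (13087 CPM) lay between those of the 2 young ones (7478 and 17359 CPM), and no young library lies outside this set, so no value within the other libraries can be given.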

How the data were processed

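Droplet libraries (10x Genomics 3' chemistry) of 6 mouse PA preparations were deposited as unfiltered matrices of 53647 genes by 6794880 barcodes. Per the study's methods, the authors trimmed reads with Cutadapt and counted them with STARsolo on GRCm38.p6. Versions of these tools are not given in the sources used here. All 9 gene identifiers carried a version 1 above that of GENCODE M21, which supplied the positions.

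From the deposited counts, UMIs were summed per library over barcodes of 2 to 100 UMIs (free RNA) and over marker-defined cells. Barcodes that are cells of the same library are thereby kept apart from its free RNA. Damaged cells of few UMIs are not, nor are barcodes that are cells only in another library. Levels are UMIs per 1e+06 UMIs of the same sum (CPM). The 9 genes, the marker lists and the further secretory, ciliated, basal, alveolar and globin lists were chosen with earlier results of these data known. The text names the 9 genes, at most 4 genes of each list by level in free RNA, and the 5 other genes most like the summed 9. Slc34a2, Cldn10 and Lcn2 fall outside that rule and are named for their values.

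Counts were tested with edgeR 4.0.16 in R 4.3.3 (TMM, robust quasi-likelihood fit, Benjamini-Hochberg over all tested genes, threshold 0.05). Old and young were compared for genes that had a UMI in over 5% of the cells of 3 or more libraries, and cells and free RNA with the library as a block after filterByExpr. Types of fewer than 10 cells in a library were left out. Per-library sums and shares were compared by exact permutation in scipy 1.17.1, after cells were thinned to 500 UMIs for shares. Intervals are exact 95% Poisson intervals and, like the limit of 3 UMIs used for a count of 0, cover counting error only. Alternatives were DESeq2 1.42.0, no TMM, no gene filter, no block, other cell, marker and free RNA limits, no scrublet doublets (scanpy 1.11.5), no shared barcodes and leaving out each library. The scripts were tested on simulated counts.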

Additional observations from a re-analysis of the deposited data

Results flagged for a closer look

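In the FBs of the 24-month library the 9 genes summed to 12034 CPM, far from the other 3 old libraries, whose median with it was 696 CPM and whose lowest value was 41.3 CPM. The gap to the nearest of them took 0.913 of the range of the old group. In that library 3 FBs of 387 held 78.1% of the FB UMIs from these genes. Without shared barcodes the value was 2614 CPM and the gap 0.593 of the range, so the library then no longer stood apart.

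In the ECs of the 24-month library 40.1% of cells had a UMI of the 9 genes at 500 UMIs, against a median of 8.35% and a lowest value of 3.20% in the old group, and the gap took 0.834 of the range. Without shared barcodes the share was 40% and the gap 0.832 of the range. The free RNA of the same library held 13087 CPM of these genes, the highest of the old group. Of 27 groups examined in this way 2 stood out. The limit used aims at about 1 in 20 by chance, a rate that was not checked for these values.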

How the results depend on the processing

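No paired analysis was possible because replicate numbers were given in accession order and pair no libraries, so age was tested without a block. Of 133 counts of called members under alternatives other than leaving out a library, 123 stayed within 1.5 times the main count. Those that did not are these. In MΦs, old against young, DESeq2 gave 1 (Scgb3a1, among 10 of 6080 genes called) and no gene filter 1 (Reg3g) in place of 0. In FBs against free RNA the count of 7 became 0 with no library block, 4 with free RNA of more than 100 and fewer than 500 UMIs, 4 with at least 1000 UMIs and 500 genes, and 1 with Epcam required. MΦs against free RNA gave 2 of 9 with no library block. FBs against ECs, SMCs and MΦs gave 5 with no gene filter, 0 with no library block and 1 with at least 1000 UMIs. The cause was not tested in any of these. Apart from DESeq2, the shares over all genes under these settings are not given, so the counts are a description. Leaving out 1 library at a time gave 2 to 8 members in FBs against free RNA, 0 to 1 in SMCs, old against young, and no change in the other counts, and the difference in the share of MΦs ran from -26.6 to 1.21 points, the last without the 3-month female.

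Fold changes kept their direction under most alternatives. For Scgb1a1, old against young, leaving out 1 library at a time gave -0.99 to 1.36 in free RNA (0.29 without the 28-month female and 1.36 without the 3-month female), -5.92 to 2.56 in FBs and -7.76 to 0.25 in MΦs, and free RNA turned to 0.72 with a covariate for the libraries sharing barcodes. The covariate also turned epithelial cells to 0.82 and ECs to 1.30. The highest of these ranges in FBs and MΦs came without the 3-month female. Cyp2f2 in FBs against free RNA was 0.60 with no library block. In FBs against ECs, SMCs and MΦs, leaving out 1 library gave -0.010 to 0.66 for Scgb3a1 and -0.056 to 0.90 for Bpifa1, both lowest without the 24-month library, and with at least 5 marker UMIs Scgb3a1 was -0.41 and Scgb3a2 -0.12. SMCs could not be fitted with the covariate, and neither SMCs nor ECs, old against young, with at least 1000 UMIs, for lack of libraries. Depth limited the young SMCs most, at 20607 and 26533 UMIs.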

Other observations

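Outside the airway lining, Ltf was found in neutrophils. In the 28-month female 80 cells carried neutrophil markers, and Ltf gave 746 of their UMIs, or 1971 CPM, against 20.9 CPM in the free RNA of that library. It was detected in 10 of these cells, and the highest held 163 UMIs. No such cells of 10 or more were found in 4 of the other libraries, and at 24 months 1 of 18 neutrophils held a single Ltf UMI. In the same 80 cells Cyp2f2 and Bpifb1 were not detected.

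Over 40 profiles of library and cell type or free RNA, 5 genes outside the 9 followed their summed level most closely among 19741 genes: Tff2 (Pearson's r 0.904), which encodes a trefoil peptide of mucous secretions, Gsto1 (0.903), a glutathione transferase, Sftpa1 (0.902), which encodes a surfactant protein, Cyp2a5 (0.895), a cytochrome P450, and Lypd2 (0.890). These profiles share libraries and depths, and r is a description only. Gsto1 was also counted in SMCs, at 12.8 to 48.5 CPM, and Tff2 at 0 to 0.226 CPM there.

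B cells held the 9 transcripts at 8.19% of free RNA in the 3-month library, 25.2% in the 3-month female and 38.7% at 24 months. They held 1.63% in the 27-month male and 3.71% in the 28-month female, below free RNA in each. Few cells held most of these UMIs in 2 libraries: 7 of 875 held 79.3% at 24 months and 1 of 22 held 72.3% in the 3-month female. Without such cells of over 5% the B cells stood at 8.14% and 7.22% of free RNA there, by a limit that can only lower the level.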
